A study of Mus musculus with 9 samples.

Results

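The TREM receptors and their DAP12 partners were followed through bone marrow-derived macrophages (BMDMs) that had met 2 kinds of fibroblast medium. The 8 genes were taken by symbol from the 53465 genes of the raw count table, 1 row each: the receptors Trem1, Trem2, Trem3 and Treml4, the signaling adaptors Tyrobp and Hcst, and the receptors Cd300a and Cd300lf. RNA was sequenced from 9 libraries of BMDMs, grown from the marrow of male wild-type C57BL/6 mice (C57bl6/J in the study's methods) in medium with CSF1 at 50 ng/ml. The age of the mice was not given in the sources used here. Of the 9 libraries, 3 came from BMDMs left untreated (UNX), 3 from BMDMs given CO-CM and 3 from BMDMs given PH-CM. CO-CM and PH-CM are media conditioned by adventitial fibroblasts of the bovine pulmonary artery, from control calves and from calves with hypoxia-induced pulmonary hypertension, respectively. All 3 groups carried the wild-type genotype and the same growth medium with CSF1 before treatment. By the study's methods the conditioned media were supplemented with serum before use, while UNX was left untreated. No group was given fresh medium that fibroblasts had not conditioned. For changes against UNX shared by both media, the products of the fibroblasts and the change of medium itself therefore cannot be told apart. Each medium was a pool over several fibroblast populations. Replicates therefore stand for repeated BMDM cultures, not for individual calves, and p-values measure the spread between these cultures. The labels give a treatment time of 16 h in the growth protocol and of 24 h in the treatment protocol, and the study's methods give a time between these, so the true time is not settled. The comparisons ask how each medium moved these receptors and adaptors away from UNX, and where PH-CM and CO-CM parted.

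TREM receptors are cell surface proteins of the immunoglobulin superfamily with short tails that carry no signal of their own. Through a charged residue in the membrane they pair with the adaptor DAP12, the product of Tyrobp, whose ITAM motif is phosphorylated by Src family kinases and then recruits the kinase Syk. In macrophages TREM1 is known as an amplifier of inflammatory responses, while TREM2 is known for sensing lipids and lipoproteins and for supporting survival and the uptake of cell debris. DAP10, the product of Hcst, recruits PI3 kinase in place of Syk and can form complexes together with DAP12. Cd300a and Cd300lf code for lipid-binding receptors of the CD300 family whose own tails carry inhibitory ITIM motifs, so not all 8 genes code for partners of DAP12 in the strict sense.

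In the GRCm38 assembly (GENCODE annotation) the 4 TREM genes lay on the plus strand of chromosome 17, Trem1 at 48232768-48246924, Trem3 at 48247777-48258841, Treml4 at 48264295-48275360 and Trem2 at 48346401-48354147. Only 852 bases separated the end of Trem1 from the start of Trem3. Tyrobp (7:30413760-30417585, plus strand) and Hcst (7:30417712-30419854, minus strand) stood tail to tail with 126 bases between them. Cd300a (11:114890041-114904654, plus strand) and Cd300lf (11:115116214-115133992, minus strand) lay 211559 bases apart on chromosome 11. RefSeq (GRCm38.p6) gave a promoter window of 250 bases before to 50 bases after the start site for 6 of the 8 genes; Tyrobp and Trem3 had no entry. The windows of Trem1 (chr17:48232489-48232788, plus strand) and Trem2 (chr17:48346151-48346450, plus strand) are shown because these receptors responded in opposite directions. Those of Cd300a (chr11:114889791-114890090, plus strand) and Cd300lf (chr11:115133943-115134242, minus strand) are shown because both genes rose under both media. Each is written 5′ to 3′ on the strand of its gene, with motif matches in capitals.
Trem1: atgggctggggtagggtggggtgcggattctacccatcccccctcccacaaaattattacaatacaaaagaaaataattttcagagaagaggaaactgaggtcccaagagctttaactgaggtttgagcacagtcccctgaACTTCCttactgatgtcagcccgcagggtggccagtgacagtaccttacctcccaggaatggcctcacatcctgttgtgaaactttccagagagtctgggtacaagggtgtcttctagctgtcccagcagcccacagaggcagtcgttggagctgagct
Trem2: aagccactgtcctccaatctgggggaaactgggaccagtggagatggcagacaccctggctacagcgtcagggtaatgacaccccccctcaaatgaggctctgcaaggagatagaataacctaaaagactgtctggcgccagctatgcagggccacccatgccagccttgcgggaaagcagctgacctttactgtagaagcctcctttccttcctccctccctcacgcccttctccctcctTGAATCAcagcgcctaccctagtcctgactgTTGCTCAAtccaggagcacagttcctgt
Cd300a: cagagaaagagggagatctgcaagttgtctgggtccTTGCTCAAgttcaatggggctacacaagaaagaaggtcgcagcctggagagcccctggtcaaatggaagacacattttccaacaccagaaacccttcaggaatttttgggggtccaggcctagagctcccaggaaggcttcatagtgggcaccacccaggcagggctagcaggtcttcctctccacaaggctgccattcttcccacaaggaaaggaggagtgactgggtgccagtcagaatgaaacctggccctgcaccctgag
Cd300lf: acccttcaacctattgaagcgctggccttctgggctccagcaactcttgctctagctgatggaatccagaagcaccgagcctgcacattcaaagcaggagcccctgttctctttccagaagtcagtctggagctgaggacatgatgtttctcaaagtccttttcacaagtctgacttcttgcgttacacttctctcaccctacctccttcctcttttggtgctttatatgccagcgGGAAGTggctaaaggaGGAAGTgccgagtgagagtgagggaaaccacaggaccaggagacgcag
Both strands were searched for 7 motifs, namely GGAAGT (ETS/PU.1), TGANTCA (AP-1), TTGCNNAA (C/EBP), the NF-kB motif, CACGTG (E-box), ACGTG (HIF, also contained in CACGTG) and TGACGTCA (CREB). The capitals in the Trem1 window are an ETS/PU.1 match on the opposite strand, with its first base at -109 from the RefSeq start site. The Trem2 window held an AP-1 match at -9 and a C/EBP match at 22. Cd300a held the C/EBP letters at -214, and Cd300lf held the ETS/PU.1 letters at -14 and at 2. Of the windows not printed, Hcst held ETS/PU.1 matches at -45 and -16 and Treml4 held 1 at -46. Of all 32851 RefSeq windows of this length, 23.8% held the ETS/PU.1 letters, 7.81% the AP-1 letters and 10.8% the C/EBP letters. None of the 6 windows held the NF-kB, E-box, HIF or CREB letters, which occurred in 20.7%, 7.15%, 19.6% and 1.79% of all windows. A match of this kind describes the letters only and shows no binding.

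The libraries held 62017933 to 84314201 counted reads. CPM values printed here are reads scaled to the counted reads of the library, with TMM factors. A gene was tested when its CPM without TMM factors exceeded 1 in at least 3 libraries, which 11950 genes met. It was called where edgeR's quasi-likelihood test gave an FDR up to 0.05 with a 1.2-fold change or more. Of the 8 genes 6 were tested, and Trem3 and Treml4 lay below the limit. Trem1 exceeded 1 CPM in the 3 PH-CM libraries and in UNX replicate 1, so it entered the test through the group in which it was high. In each group replicate 1 had the lowest Tyrobp, Hcst, Trem2 and Cd300lf level of its 3 libraries and the highest Trem1 level. All 9 macrophage markers checked, such as Csf1r and Adgre1, were tested. Fewer cells of a type and less RNA per cell cannot be told apart in these bulk libraries.

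Against UNX, PH-CM raised 5 of the 6 tested genes and lowered 0, and Trem2 was not called. Of all genes tested, 63.0% were called in that comparison, 31.3% as higher and 31.7% as lower, and in 77.7% the 3 libraries of each group did not overlap, 38.9% with PH-CM higher. CO-CM raised 5 as well (Trem2, Tyrobp, Hcst, Cd300a and Cd300lf) and lowered 1, Trem1, in a comparison that called 57.0% of all genes, 28.0% higher and 28.9% lower, with no overlap in 72.0% and with CO-CM the higher group in 35.4%. The 4 genes called higher under both media, Tyrobp, Hcst, Cd300a and Cd300lf, stood against 22.7% of all genes tested. Compared directly, PH-CM was above CO-CM for Trem1 and Cd300lf and below it for Trem2, where 27.1% of all genes were called, 12.2% higher and 15.0% lower, and where the libraries of 50.2% did not overlap, 23.9% with PH-CM higher. The median log2 fold change of the 6 genes was 1.12 in PH-CM against UNX, 0.69 in CO-CM against UNX and 0.10 in PH-CM against CO-CM, with medians over all genes tested of 0.01, 0.00 and -0.01.

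**Figure D1:**
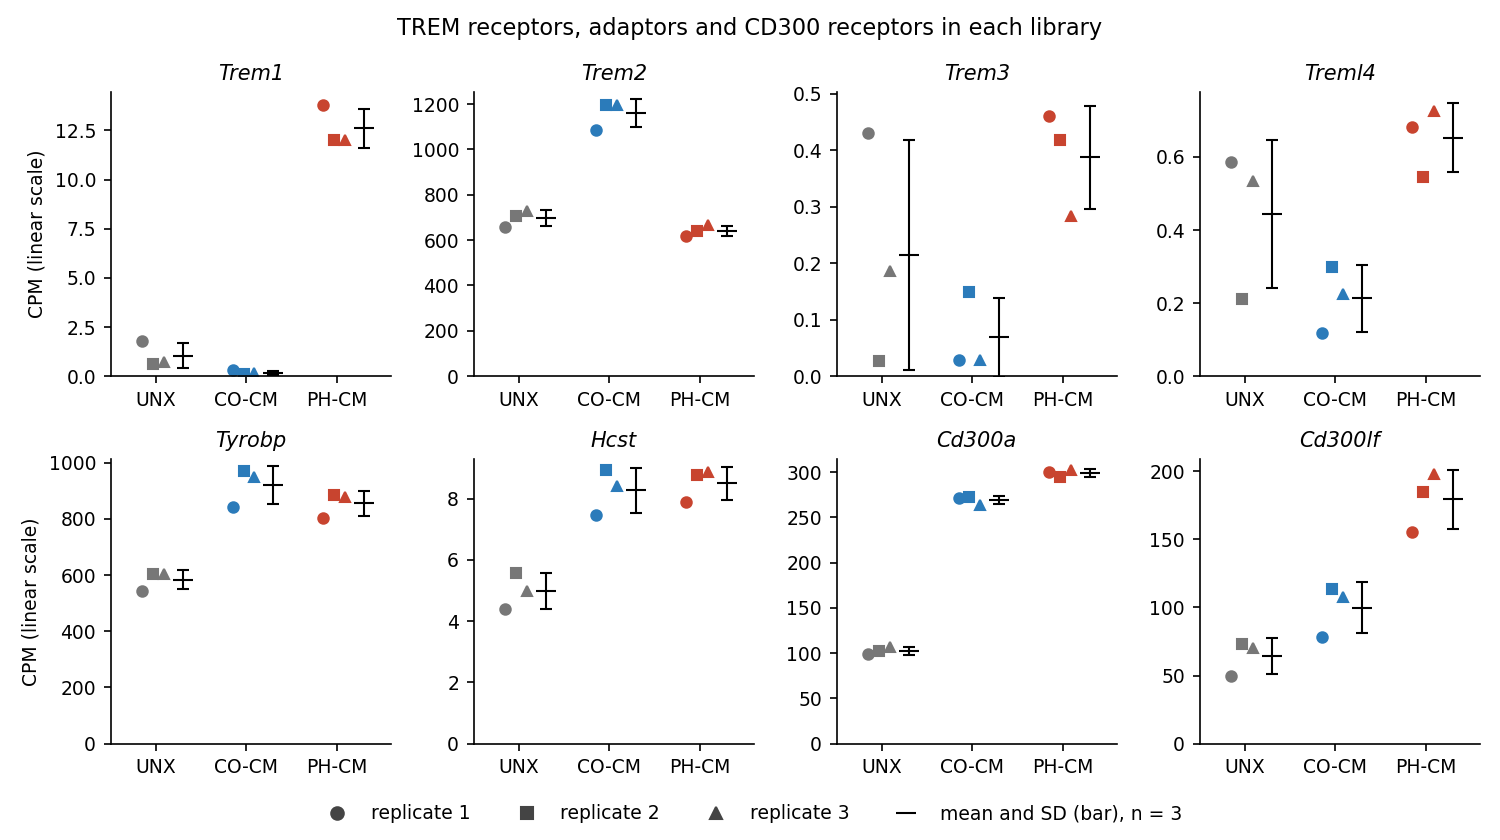
CPM of the 8 genes in each of the 9 libraries (linear axes that start at 0, a separate scale in each panel), with replicates 1, 2 and 3 as circles, squares and triangles and the mean and SD of 3 libraries as a bar beside them. Trem1 sits at 12.0 to 13.8 CPM in PH-CM and below 2 in all other libraries, Trem2 is highest in the 3 CO-CM libraries, and Trem3 and Treml4 stay below 1 CPM throughout.

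Of the 6 tested genes Trem1 moved most, and it moved in opposite directions under the 2 media. Its level in UNX replicates 1 to 3 was 1.79, 0.609 and 0.744 CPM, from 116, 46 and 64 reads. Under CO-CM it was 0.292, 0.0897 and 0.140 CPM, from only 20, 6 and 10 reads. Under PH-CM it reached 13.8, 12.0 and 12.0 CPM, from 927, 748 and 760 reads. The 3 groups did not overlap, with every PH-CM library above every UNX library and every UNX library above every CO-CM library. PH-CM against UNX gave a log2 fold change of 3.62 (SE 0.33, FDR 3.41e-06), a 12.3-fold rise. CO-CM against UNX gave -2.54 (SE 0.50, FDR 0.000972), a level 5.82-fold lower. The direct contrast of PH-CM with CO-CM was 6.16 (SE 0.43, FDR 2.91e-06), or 71.6-fold. Of all genes tested, 1.30% were called in opposite directions under the 2 media, and 0.762% (91 genes) lower under CO-CM and higher under PH-CM against the same UNX libraries, Trem1 among them. UNX replicate 1 weighed on the size: without it the log2 fold change was 4.20 for PH-CM and -1.97 for CO-CM, both still called. CO-CM replicate 1 did too: without it CO-CM against UNX was -3.12 and PH-CM against CO-CM 6.74. When CO-CM and UNX were fitted alone, Trem1 fell below the filter and could not be called. An annotated pseudogene lies inside Trem1 on the opposite strand and is no row of the count table.

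Trem2 followed another order. The UNX libraries held 659, 708 and 730 CPM of Trem2. CO-CM raised this to 1087, 1195 and 1197 CPM. In PH-CM the level was 620, 639 and 665 CPM, a range that overlapped that of UNX. All CO-CM libraries stood above all others. CO-CM against UNX gave a log2 fold change of 0.73 (SE 0.06, FDR 1.89e-06), a 1.66-fold rise, and PH-CM against CO-CM gave -0.86 (SE 0.06, FDR 2.97e-06), a level 1.81-fold lower under PH-CM. PH-CM against UNX was not called, at -0.12 with a 95% interval from -0.26 to 0.01 (FDR 0.0792). Genes called higher under CO-CM against UNX and lower under PH-CM against CO-CM, as Trem2 was, made up 4.36% of all genes tested.

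Trem3 and Treml4 were barely detected. Trem3, a mouse receptor that also pairs with DAP12, had 28, 2 and 16 reads in UNX, 2, 10 and 2 under CO-CM, and 31, 26 and 18 under PH-CM. Treml4, a receptor linked to Toll-like receptor 7 signaling and to the binding of dying cells, had 38, 16 and 46 reads in UNX, 8, 20 and 16 under CO-CM and 46, 34 and 46 under PH-CM. For both genes the PH-CM libraries lay above the CO-CM libraries, and the UNX libraries overlapped both other groups. Each gene entered a fit of 26930 genes without the filter. There PH-CM was above CO-CM for Trem3 (log2 fold change 2.47, SE 0.64, FDR 0.00329) and for Treml4 (1.60, SE 0.40, FDR 0.00198), and Treml4 was lower under CO-CM than in UNX (-1.09, SE 0.40, FDR 0.0307). The other contrasts were not called, namely Trem3 under PH-CM (0.83, FDR 0.282) and CO-CM (-1.64, FDR 0.0529) and Treml4 under PH-CM (0.51, FDR 0.319), each against UNX. Since the mates of a pair were counted separately, these reads stand for fewer fragments still.

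The adaptors rose by similar amounts under both media. Tyrobp, which codes for DAP12, had 545, 604 and 603 CPM in UNX. Its level was 844, 970 and 950 CPM under CO-CM and 803, 883 and 878 CPM under PH-CM. The treated libraries all lay above the UNX libraries, and the media overlapped. The log2 fold change against UNX was 0.66 for CO-CM (SE 0.07, FDR 1.29e-05) and 0.55 for PH-CM (SE 0.07, FDR 3.69e-05). PH-CM against CO-CM was not called, at -0.11 with an interval from -0.26 to 0.05 (FDR 0.250). Hcst, which codes for DAP10, was far scarcer, at 4.39, 5.56 and 5.00 CPM in UNX. It reached 7.48, 8.92 and 8.42 CPM under CO-CM and 7.89, 8.76 and 8.87 CPM under PH-CM. Again both treated groups stood clear of UNX and overlapped each other. The rise was 0.73 on the log2 scale for CO-CM (SE 0.11, FDR 0.000157) and 0.77 for PH-CM (SE 0.11, FDR 8.92e-05), and the media differed by 0.04 with an interval from -0.20 to 0.28 (FDR 0.802). Without CO-CM replicate 1 that last difference was -0.028, still not called.

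The CD300 receptors rose under both media as well. Cd300a, an inhibitory receptor for phosphatidylserine and phosphatidylethanolamine, stood at 98.6, 103 and 107 CPM in UNX. Its level was 271, 272 and 264 CPM under CO-CM and 301, 294 and 303 CPM under PH-CM. The groups did not overlap in any comparison, and the spread within each was small. Against UNX the log2 fold change was 1.39 for CO-CM (SE 0.04, FDR 6.79e-09) and 1.54 for PH-CM (SE 0.04, FDR 1.30e-09). The PH-CM level exceeded the CO-CM level by 0.15 (interval 0.06 to 0.25, FDR 0.0171), which is a fold change of 1.11 and under the limit of 1.2, so it was not called. Cd300lf, another inhibitory receptor of this family, had 49.4, 73.4 and 70.1 CPM in UNX. CO-CM libraries held 78.3, 114 and 108 CPM and PH-CM libraries 156, 185 and 198 CPM. Here the 3 groups were ordered, with UNX lowest and PH-CM highest and no overlap. The log2 fold change was 0.63 for CO-CM (SE 0.17, FDR 0.00629) and 1.48 for PH-CM (SE 0.17, FDR 1.79e-05) against UNX, and 0.85 for PH-CM against CO-CM (SE 0.17, FDR 0.00269). Cd300lf overlaps Rab37 on the opposite strand, and Rab37 reached at most 2.15 CPM in any library. Of all 100-base stretches in the longest transcript, 0.902% of those of Cd300a also occur in Cd300c2 and 0.914% of those of Cd300lf in Cd300ld, while the other 6 genes shared 0% with any gene.

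**Figure D2:**
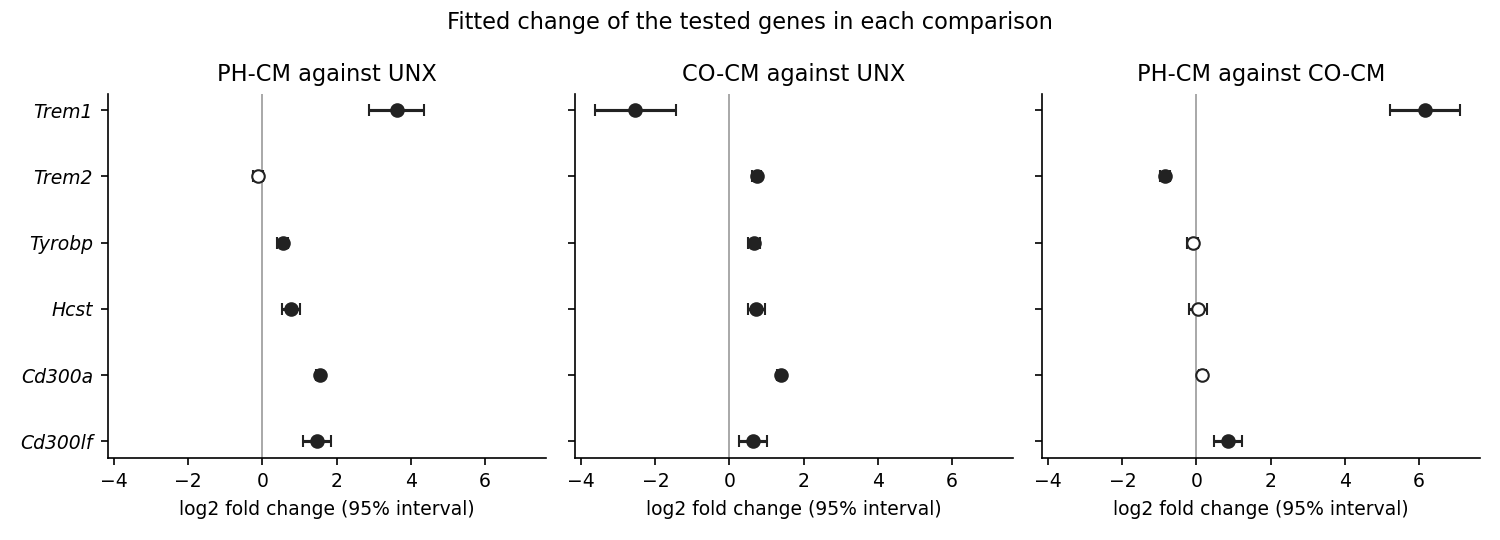
Log2 fold change of the 6 tested genes in each comparison, with the 95% interval of the edgeR fit; filled points were called and open points were not. Trem1 lies at 3.62 in PH-CM against UNX and at -2.54 in CO-CM against UNX, while Tyrobp and Hcst sit near each other to the right of 0 in both and close to 0 in PH-CM against CO-CM.

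Per length of transcript, on the RPKM scale, the adaptor Tyrobp was the most abundant of the 8 genes in all groups. Its mean level was 901 RPKM in UNX, 1354 under CO-CM and 1268 under PH-CM, ranks 25, 21 and 20 among all genes. Trem2 came next, at 145, 230 and 128 RPKM, followed by Cd300a at 22.3, 55.7 and 62.5, Cd300lf at 12.8, 19.0 and 34.5 and Hcst at 7.10, 11.2 and 11.7. Those 5 levels were in the same order in each group, and the libraries of neighbors in that order did not overlap. Trem1 changed its place at the bottom of the order. In UNX it was at 0.362 RPKM, overlapping Treml4 at 0.229 and Trem3 at 0.224. Under CO-CM it was the lowest of the 8 in the mean, at 0.0574 RPKM against 0.104 for Treml4 and 0.0674 for Trem3, again with overlap. Under PH-CM Trem1 stood at 4.17 RPKM, clear of Hcst above it and of Trem3 (0.386) and Treml4 (0.323) below it. Among all genes Trem1 ranked 12237 in UNX, 16947 under CO-CM and 7092 under PH-CM.

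Since TREM1 and TREM2 use the same adaptor, each receptor was also set against Tyrobp within the library, as a ratio of RPKM values. Trem2 was 16.3%, 15.8% and 16.3% of the Tyrobp level in UNX, 17.4%, 16.6% and 17.0% under CO-CM, and 10.4%, 9.75% and 10.2% under PH-CM. So Trem2 and Tyrobp kept nearly the same ratio in UNX and CO-CM, and all PH-CM libraries lay lower. The mean log2 ratio differed by -0.67 between PH-CM and UNX, by -0.75 between PH-CM and CO-CM and by 0.07 between CO-CM and UNX. Trem1 was 0.0730%, 0.0224% and 0.0275% of Tyrobp in UNX, 0.00771%, 0.00206% and 0.00329% under CO-CM, and 0.382%, 0.303% and 0.304% under PH-CM. Trem1 thus stayed far below Trem2 in every library, while its log2 ratio to Tyrobp was 3.20 higher under PH-CM than in UNX and 3.25 lower under CO-CM. PH-CM exceeded CO-CM by 6.45 in this ratio. With 0.1 RPKM added to both genes, the difference was -2.06 for CO-CM against UNX and 4.87 for PH-CM against CO-CM. The groups did not overlap in any of these 6 contrasts, and each gave an exact two-sided permutation p of 0.1, the smallest that 3 libraries against 3 allow. These are ratios of RNA levels and not of receptor complexes.

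**Figure D3:**
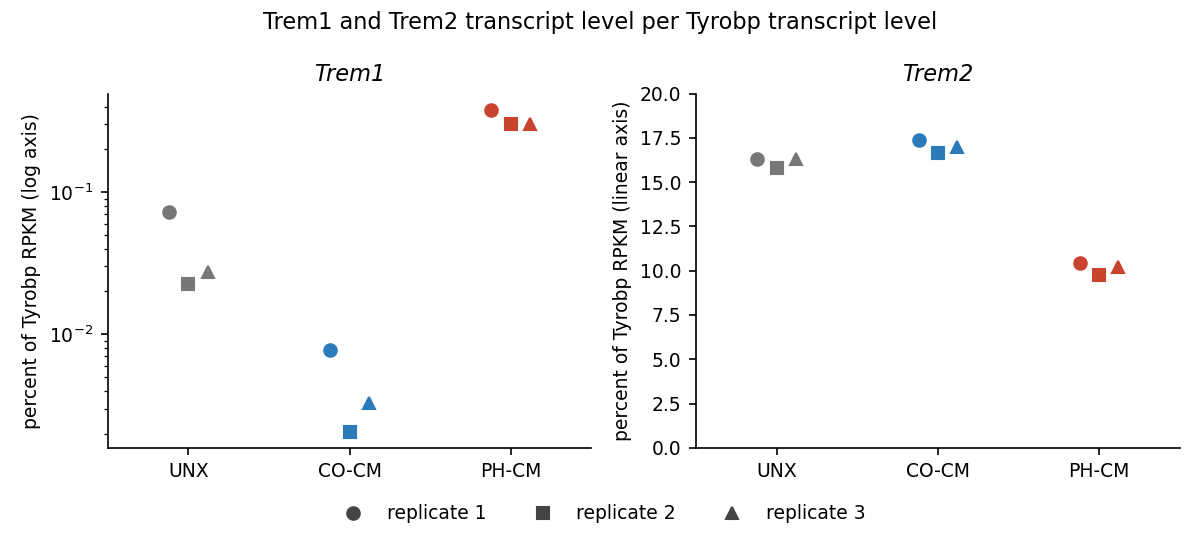
Trem1 (left, log axis) and Trem2 (right, linear axis from 0) as a percent of the Tyrobp RPKM in each of the 9 libraries, with replicates 1, 2 and 3 as circles, squares and triangles. Trem2 lies between 15.8% and 17.4% in UNX and CO-CM and between 9.75% and 10.4% in PH-CM, and Trem1 is highest in PH-CM and lowest in CO-CM.

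The genes whose log2 CPM ran most like that of each receptor over the 9 libraries were found by Pearson correlation, as a description over libraries that share groups and depth. For Trem1 they were P2ry6 (r = 0.994), which codes for a receptor for extracellular UDP, the ETS family repressor gene Etv6 (r = 0.994) and Ralgps1 (r = 0.992). Their mean levels spanned narrower ranges than Trem1, with P2ry6 at 191, 171 and 230 CPM in UNX, CO-CM and PH-CM. For Trem2 they were Galns (r = 0.998), a lysosomal sulfatase gene, Vwa8 (r = 0.996) and Edem1 (r = 0.995), which codes for a protein of the quality control of the endoplasmic reticulum. Galns stood at 92.2, 141 and 85.8 CPM in the 3 groups. For Tyrobp they included Coro1b (r = 0.998) and Rsph9 (r = 0.996), and Coro1b, an actin regulator gene, had 191, 312 and 293 CPM.

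Other genes of the same receptor families did not move as 1 block. Of the remaining TREM locus genes, Treml1, known as a receptor of platelet granules, rose under both media, with log2 fold changes of 0.78 for PH-CM (FDR 0.00163) and 1.38 for CO-CM (FDR 3.40e-05). PH-CM was below CO-CM by -0.60 (FDR 0.0147), a call that was lost without CO-CM replicate 2 (-0.51, FDR 0.0567), CO-CM replicate 3 (-0.52, FDR 0.0597) or PH-CM replicate 1 (-0.46, FDR 0.0582). Treml2 was not called in any comparison, at 0.12, -0.30 and 0.42 in PH-CM against UNX, CO-CM against UNX and PH-CM against CO-CM. With the replicate block, however, it was called lower in CO-CM against UNX (-0.30, FDR 0.0137) and higher in PH-CM against CO-CM (0.42, FDR 0.00338), and without the low-count filter the latter was called too (0.42, FDR 0.0489). Of 10 further CD300 genes found, 7 were tested. PH-CM raised 4 and lowered 2 against UNX, CO-CM raised 1 and lowered 4, and PH-CM against CO-CM had 5 higher and 1 lower. Among the genes raised by PH-CM, the one with the smallest rise lost its call in 5 of 20 alternative fits. The median log2 fold change of the 7 genes was 0.30, -0.57 and 0.89 in these comparisons. Of all genes tested, 31.3% were called higher and 31.7% lower in PH-CM against UNX. The shares were 28.0% and 28.9% in CO-CM against UNX and 12.2% and 15.0% in PH-CM against CO-CM. They are the background for the counts of each list below as well. Cd300ld, an activating receptor gene, split as Trem1 did, with 0.79 under PH-CM (FDR 2.21e-05), -0.58 under CO-CM (FDR 0.000254) and 1.38 between the media (FDR 2.91e-06), from mean levels of 145 CPM in UNX, 96.8 under CO-CM and 251 under PH-CM. Cd300c2 rose under both media, by 1.30 under PH-CM (FDR 2.79e-06) and 0.68 under CO-CM (FDR 0.000380). Cd300e, an activating receptor gene of monocytes that passed the filter through the UNX libraries alone, fell from 7.63 CPM in UNX to 0.203 under CO-CM and 0.427 under PH-CM. Its log2 fold changes were -5.22 (FDR 2.91e-08) and -4.16 (FDR 3.91e-08), and the gap between the media, with PH-CM higher (1.06, FDR 0.0156), was not called without CO-CM replicate 2 (0.89, FDR 0.0559) or PH-CM replicate 2 (0.79, FDR 0.0606). Cd300ld4 (1.49, FDR 0.000704) was higher and Cd300lg (-1.64, FDR 5.77e-06) lower under PH-CM than in UNX, both at under 4 CPM in each group mean, and Cd300ld4 passed the filter through the PH-CM libraries alone. Cd300lg was called lower under CO-CM too.

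Among 16 other receptors known to pair with DAP12 or DAP10, 8 were tested. PH-CM raised 4 and lowered 2, CO-CM raised 4 and lowered 3, and PH-CM against CO-CM had 4 higher and 1 lower, with medians of 0.33, 0.35 and 0.48. The SIRP beta genes were the ones that rose most. Sirpb1c went from 3.47 CPM in UNX to 15.6 under CO-CM (log2 fold change 2.16, FDR 3.60e-07) and 26.3 under PH-CM (2.92, FDR 2.90e-08). Sirpb1a (2.36, FDR 1.11e-07) and Sirpb1b (2.42, FDR 2.00e-07) rose under PH-CM in the same way, and how the counting shared reads among these near-identical genes was not tested. Clec5a, a C-type lectin that signals through DAP12 in myeloid cells, fell from 50.5 CPM in UNX to 22.1 under CO-CM (-1.19, FDR 4.16e-06) and 14.9 under PH-CM (-1.76, FDR 1.99e-07). Pilrb2, above 1 CPM in the 3 UNX and 2 PH-CM libraries, was lower under CO-CM than in UNX (-2.00, FDR 5.13e-05), and PH-CM exceeded CO-CM by 1.55 (FDR 0.00111). Pilrb1 was higher in PH-CM against CO-CM too (1.18, FDR 0.0236), a call lost without CO-CM replicate 1 (1.11, FDR 0.0603), CO-CM replicate 2 (1.12, FDR 0.0673) or PH-CM replicate 2 (0.73, FDR 0.0916). It exceeded 1 CPM in 3 UNX, 0 CO-CM and 1 PH-CM libraries, at means of 1.43, 0.323 and 0.737 CPM. Of the other ITAM adaptor chains only Fcer1g, the common gamma chain of Fc receptors, passed the filter, and it was not called in any comparison, at mean levels of 614, 593 and 578 CPM in UNX, CO-CM and PH-CM. Its log2 fold changes were -0.09 for PH-CM against UNX, -0.05 for CO-CM against UNX and -0.04 for PH-CM against CO-CM.

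**Figure D4:**
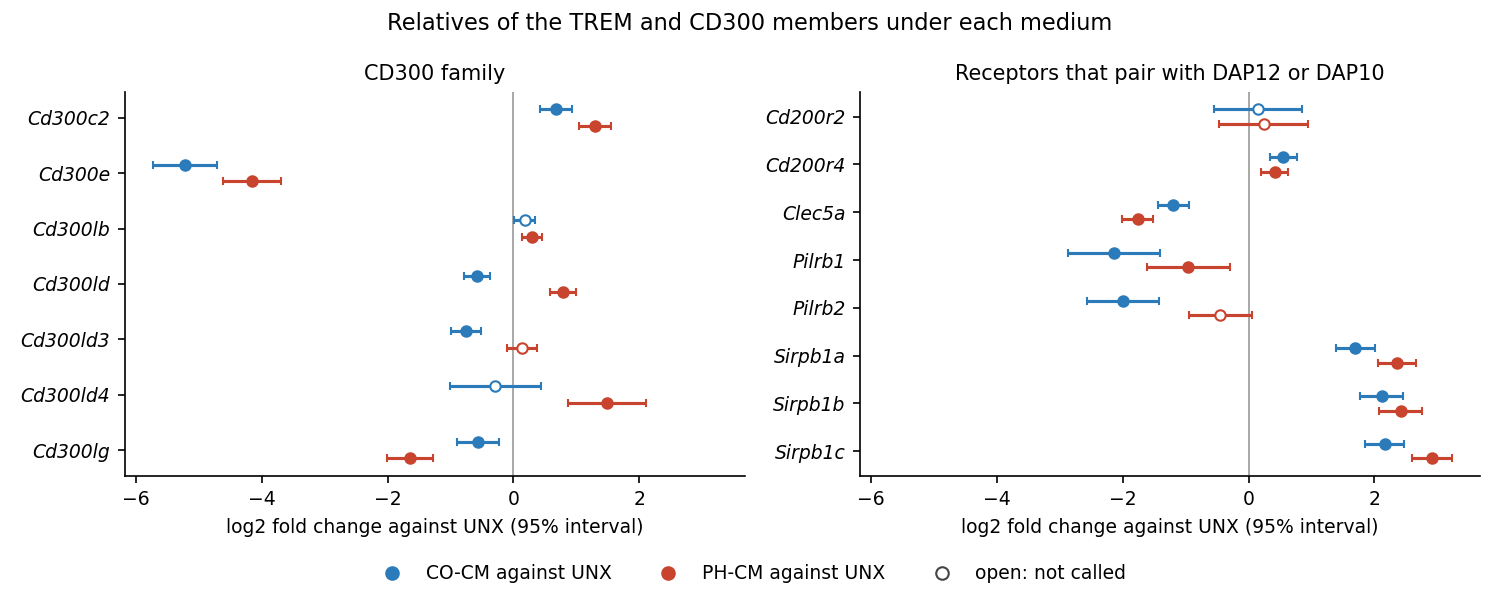
Log2 fold change against UNX, with 95% intervals, of the 7 tested further CD300 genes (left) and the 8 tested further receptors of DAP12 or DAP10 (right), for CO-CM in blue and PH-CM in red; open points were not called. Cd300ld is left of 0 under CO-CM and right of 0 under PH-CM, Cd300e and Clec5a are left of 0 under both media, and the 3 SIRP beta genes are right of 0 under both.

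Downstream of the ITAM, 29 of 32 kinases and signal carriers were tested, and calls went in both directions, as they did over all genes. Against UNX, PH-CM raised 9 and lowered 7, where 31.3% of all genes tested were called higher and 31.7% lower. CO-CM raised 9 and lowered 10, where 28.0% of all genes were higher and 28.9% lower. A gene lowered by PH-CM lost its call in 5 of 20 alternatives, and another lowered by CO-CM lost its call in 9. PH-CM against CO-CM had 7 higher and 5 lower, beside 12.2% and 15.0% of all genes. In that comparison a gene called lower lost its call in 4 of 20 alternatives, and another that was not called gained a call in 9. Syk, the kinase that binds phosphorylated DAP12, rose from 343 CPM in UNX to 631 under CO-CM (log2 fold change 0.88, FDR 3.84e-07) and 777 under PH-CM (1.18, FDR 3.13e-08), and PH-CM exceeded CO-CM by 0.30 (FDR 0.00211). Among the genes of the Src family, Fgr rose under PH-CM (1.86, FDR 4.87e-05) and CO-CM (2.18, FDR 1.85e-05). Src itself rose under PH-CM (1.46, FDR 0.000204) and was called higher under CO-CM too. Its means were 1.63, 3.04 and 4.49 CPM in UNX, CO-CM and PH-CM. Lyn was lower under CO-CM than in UNX (-0.84, FDR 7.76e-07), with PH-CM above CO-CM by 0.60 (FDR 3.62e-05). Vav3, a nucleotide exchange factor, stood 0.80 higher in PH-CM against CO-CM (FDR 8.46e-06), as did Nfatc2, a transcription factor gene, by 0.64 (FDR 7.59e-05), and Pik3cb was lower (-0.61, FDR 0.000249). Against UNX, Vav3 and Nfatc2 were called lower under CO-CM and were not called under PH-CM. In UNX, CO-CM and PH-CM, Vav3 stood at 108, 60.4 and 105 CPM and Nfatc2 at 90.9, 62.0 and 96.4 CPM. Of 10 tested brakes on ITAM signaling, each medium raised 3 and lowered 2 against UNX, and PH-CM against CO-CM had 2 of each. All 3 genes raised by CO-CM lost their calls in 4 to 6 of 20 alternatives. Among those raised by PH-CM, the gene with the smallest rise lost its call in 6 of 20. The adaptor gene Dok2 fell under PH-CM (-2.32, FDR 5.02e-08) and the phosphatase gene Ubash3b fell too (-2.13, FDR 2.63e-08). Both were also called lower under CO-CM. Means in UNX, CO-CM and PH-CM were 235, 41.3 and 47.0 CPM for Dok2 and 113, 48.8 and 25.9 CPM for Ubash3b. Inpp5d, the gene of the lipid phosphatase SHIP1, rose under PH-CM (0.56, FDR 0.000114). So did the adaptor gene Dok3 (0.66, FDR 2.50e-07), which was called higher under CO-CM too. In PH-CM against CO-CM Sh2d1b1 was lower (-0.82, FDR 0.00764). Of 12 tested inhibitory ITIM receptors, PH-CM raised 6 and lowered 5, CO-CM raised 2 and lowered 3, and PH-CM against CO-CM had 6 higher and 3 lower. Pecam1 rose from 0.0589 to 2.19 CPM under PH-CM (5.11, FDR 1.69e-05) and passed the filter through PH-CM alone. The collagen receptor gene Lair1 fell under PH-CM (-2.05, FDR 1.26e-09), as did Pilra (-1.55, FDR 3.16e-06), and both were called lower under CO-CM too. Lair1 stood at 140, 111 and 33.8 CPM in UNX, CO-CM and PH-CM, and Pilra at 13.3, 2.44 and 4.54 CPM. The C-type lectin gene Clec4a2 rose under PH-CM (1.49, FDR 3.07e-07). Another C-type lectin gene, Clec12a, was lower in PH-CM against CO-CM (-1.82, FDR 4.49e-06).

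The reported ligands and co-receptors of TREM proteins were partly out of reach, with 7 of 11 tested. PH-CM raised 4 and lowered 2 against UNX, CO-CM raised 3 and lowered 2, and PH-CM against CO-CM had 1 of each. The latter were Hspa1b (0.79, FDR 0.0345) and Lgals3 (-0.44, FDR 0.0287), and each lost its call in 4 of 20 alternatives. Hspa1b was not called without CO-CM replicate 1 (FDR 0.0836), CO-CM replicate 2 (FDR 0.0981), PH-CM replicate 1 (FDR 0.139) or PH-CM replicate 2 (FDR 0.0699). Lgals3 was not called without CO-CM replicate 2 (FDR 0.0767), CO-CM replicate 3 (FDR 0.108), PH-CM replicate 1 (FDR 0.102) or PH-CM replicate 2 (FDR 0.0770). Hspa1b, one of those raised against UNX by PH-CM (0.62, FDR 0.0483), lost that call in 11 of 20 alternatives, with an FDR of up to 0.258 without PH-CM replicate 1. Apoe, whose product binds TREM2, rose from 563 CPM in UNX to 2039 under CO-CM (log2 fold change 1.86, FDR 1.57e-07) and 2382 under PH-CM (2.08, FDR 4.72e-08), and the media were not called different (0.22, FDR 0.114), except without PH-CM replicate 1 (0.33, FDR 0.0306). Pglyrp1, a reported partner of TREM1, was below the filter, with means of at most 0.140 CPM. Hmgb1 (-0.97, FDR 6.82e-08) and Actb (-0.93, FDR 3.19e-07) fell under PH-CM, and both were called lower under CO-CM too. Hmgb1 stood at 289, 164 and 147 CPM in UNX, CO-CM and PH-CM, and Actb at 9970, 5793 and 5232 CPM. Hspa1a, which has the near-identical copy Hspa1b, rose under PH-CM (1.14, FDR 0.00678) and is counted among the 4 raised. It exceeded 1 CPM in 0 UNX, 2 CO-CM and 3 PH-CM libraries, so it was tested because it was high under the media. Its means were low, at 0.650, 1.03 and 1.42 CPM in UNX, CO-CM and PH-CM. Of 10 tested proteases known to release or clear TREM ectodomains and their membrane stubs, PH-CM raised 5 and lowered 1, CO-CM raised 6 and lowered 0, and PH-CM against CO-CM had 0 higher and 1 lower. The gamma secretase genes Aph1c, a near copy of Aph1b (2.02, FDR 2.69e-05), and Psen2 (1.09, FDR 7.28e-07) rose under PH-CM. Both were called higher under CO-CM too, and neither was called between the media. Aph1c stood at 25.8, 95.3 and 105 CPM in UNX, CO-CM and PH-CM, and Psen2 at 65.4, 149 and 139 CPM. Adam17, the gene of a TREM2 sheddase, rose under CO-CM (0.58, FDR 1.06e-05) and PH-CM (0.28, FDR 0.00149), with the latter losing its call in 5 of 20 alternatives, by going under the fold limit under library size alone, under the 3 other settings of the low-count filter and without UNX replicate 3 (0.22 to 0.24, FDR up to 0.0121). Mmp9 was the 1 lower under PH-CM (-0.48, FDR 0.0376), a call lost without UNX replicate 3 (FDR 0.129), PH-CM replicate 1 (FDR 0.140) or PH-CM replicate 2 (FDR 0.0504). Adam17 was the 1 lower in PH-CM against CO-CM (-0.30, FDR 0.00277) and fell under the fold limit without CO-CM replicate 2 (-0.24, FDR 0.00940).

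The programs that follow each receptor in the literature were described as 2 lists. Of 17 tested TREM2-linked genes of lipid handling and disease-associated macrophages, CO-CM raised 13 and lowered 1 against UNX, PH-CM raised 8 and lowered 6, and PH-CM against CO-CM had 1 higher and 9 lower. The median log2 fold change was 0.67, 0.24 and -0.44 in these comparisons, and Trem2 is not in the list. Lipoprotein lipase, Lpl, stood at 1958 CPM in UNX, 1479 under CO-CM and 163 under PH-CM, a log2 fold change of -3.59 for PH-CM against UNX (FDR 4.89e-06). The receptor gene Clec7a went from 29.0 CPM in UNX to 136 under CO-CM (2.23, FDR 0.000221) and 29.8 under PH-CM, and the integrin gene Itgax was lower under PH-CM than under CO-CM (-2.87, FDR 0.00200). Ch25h, the gene of a cholesterol hydroxylase, fell under PH-CM (-4.34, FDR 0.000116) and passed the filter through the UNX libraries alone. It was called lower under CO-CM too, at means of 2.17, 0.125 and 0.105 CPM in UNX, CO-CM and PH-CM. Igf1 was lower under PH-CM than in UNX (-1.34, FDR 6.74e-07) and than under CO-CM (-1.65, FDR 1.26e-06). The exception in the other direction was Ctsl, a lysosomal protease gene, with PH-CM above CO-CM by 1.14 (FDR 7.97e-06). Of 11 tested cytokines and enzymes known to follow TREM1 engagement, PH-CM raised 6 and lowered 5, CO-CM raised 3 and lowered 5, and PH-CM against CO-CM had 6 higher and 2 lower. Il1b rose from 0.154 CPM in UNX to 1.04 under CO-CM (2.76, FDR 0.00187) and 9.77 under PH-CM (6.00, FDR 2.28e-06), with Cxcl3 (3.42, FDR 0.000211) and Ptgs2 (3.20, FDR 4.05e-06) also higher under PH-CM, and Cxcl2 higher in PH-CM against CO-CM (2.20, FDR 0.000204). Without CO-CM replicate 2 the log2 fold change of Il1b was 2.01 in CO-CM against UNX (FDR 0.00393) and 3.99 in PH-CM against CO-CM (3.24 with all libraries), and without UNX replicate 2 that of Cxcl3 was 2.83 in PH-CM against UNX. Cxcl3, Il1a and Cxcl1 passed the filter through the PH-CM libraries alone, and Il1b through these and 1 CO-CM library, so the count of raised genes in this list includes genes that were tested because they were high there. The chemokine genes Ccl2 (-5.22, FDR 5.49e-08), Ccl7 (-5.82, FDR 3.76e-09) and Ccl4 (-4.27, FDR 5.20e-08) fell under PH-CM, so this list moved both ways. Each was also called lower under CO-CM than in UNX, so these falls were shared by the media. Mean levels in UNX, CO-CM and PH-CM were 383, 8.18 and 10.3 CPM for Ccl2 and 128, 1.72 and 2.26 CPM for Ccl7. Of these 3 chemokine genes only Ccl4 was also called lower in PH-CM against CO-CM, as 1 of the 2 lower genes of the list there.

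Markers of other cells that carry these receptors were read in the same libraries. The summed macrophage markers (9 of 9 tested) were 11964 to 12760 CPM in UNX, 19253 to 20214 under CO-CM and 21789 to 23632 under PH-CM, and Lyz2 made up most of the sum, at means of 7240, 12794 and 15181 CPM. Not all markers followed it: under CO-CM Cd14 (308 CPM in UNX, 174 under CO-CM), Itgam (106 and 91.6) and Fcgr1 (99.3 and 89.4) had lower means. Of 12 neutrophil markers 2 passed the filter, S100a8 and Mmp8, and Ly6g was at 0 reads in all libraries. Their sum was 6.58 to 9.50 CPM in UNX, 16.8 to 18.1 under CO-CM and 23.4 to 31.4 under PH-CM. Mmp8 made up most of it, at means of 4.84, 12.9 and 24.7 CPM, whereas Elane, Mpo, Camp and Retnlg were each under 0.1 CPM in all group means. None of the 12 NK and T cell markers, 8 dendritic cell markers, 5 B cell markers or 6 mast cell and basophil markers passed the filter, and Ncr1, Nkg7, Gzma, Prf1 and Cd3g were at 0 reads. Osteoclast markers, of interest because DAP12 serves these cells too, passed for 4 of 8 genes, with sums of 95.9 to 247 CPM in UNX, 468 to 739 under CO-CM and 294 to 432 under PH-CM, and Calcr at 0 reads. Atp6v0d2 made up most of that sum, at means of 154, 541 and 295 CPM. Acp5, Ctsk and Itgb3 also had higher means under both media than in UNX. Dcstamp (1.45, 0.585 and 0.292 CPM in UNX, CO-CM and PH-CM) and Ocstamp had lower ones. Fibroblast markers (6 of 8) summed to 197 to 249 CPM in UNX, 266 to 318 under CO-CM and 249 to 335 under PH-CM, and monocyte markers (4 of 6) to 13.8 to 17.1, 15.8 to 18.7 and 10.8 to 17.7 CPM. The part of the macrophage, neutrophil, osteoclast and fibroblast marker shifts in the results above was not tested.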

How the data were processed

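RNA-Seq was analysed for 9 libraries of mouse BMDMs, 3 each UNX, CO-CM and PH-CM, grouped and numbered by their labels. The authors used FastQC 0.11.5 for read quality and AfterQC for trimming, mapped reads to GRCm38 with STAR 2.6.0c and assigned them to genes with featureCounts 1.6.2. The deposited counts are unnormalized whole reads, and the counting command names no strand or pair option. Per the file headers the authors also deposited RPKM, counts scaled to exon length and library total, and tables of their own edgeR comparisons (fold changes, p-values and FDR), which were not used.

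The counts were fitted with edgeR 4.0.16 (R 4.3.3). TMM factors were computed on the 11950 genes above 1 CPM in 3 or more libraries, and 1 quasi-likelihood fit covered the 9 libraries and 3 groups. FDR is the Benjamini-Hochberg value over the genes tested, and calls need an FDR up to 0.05 and a 1.2-fold change or more. Libraries of 62017933 to 84314201 reads make counting error small above a few CPM. Ratios to Tyrobp used RPKM and an exact permutation test. Symbols and loci come from reference tables of GRCm38, and 53274 of 53465 identifiers matched.

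The 8 genes and all lists were chosen with earlier results of these data known. Every one of the 8 is named; from each list up to 4 called genes per comparison with the largest change in PH-CM against UNX or PH-CM against CO-CM are named, plus Syk, Fcer1g, Pglyrp1, Apoe, Cd300e and Clec5a, and for Trem1, Trem2 and Tyrobp the 3 most correlated genes, of which 1 for Tyrobp is not reported here. Treml2 and the single marker genes lie outside this rule and were chosen after their values were seen. The list names Treml6, Trem6l, Cd300lh and Lilrb4b matched no row.

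Libraries of 1 group differed beyond sampling noise (chi-square per gene at least 8.91). Deviations from the group means correlated between libraries with the same number in all 9 pairs (r 0.276 to 0.484; -0.376 to 0.0423 for different numbers), which met the limit set for pairing, although no label ties a number to a culture day. The fold changes and FDR printed come from the fit without a replicate block, and the fit with the block is an alternative. The fit was tested on simulated data: of 67 genes changed 1.5-fold and 67 changed 2-fold, 94.0% and 100% were recovered for PH-CM against UNX and 91.0% and 97.0% for CO-CM against UNX (11816 genes, 13 and 11 false calls), and 85.1% and 95.5% for PH-CM against CO-CM (11835 genes, 9 false calls). The simulation raised and lowered equal numbers of genes in 1 group, drawn above a minimum mean level, and held no replicate effect. Far fewer genes changed in it than were called in these data. Its rates were not shown to hold for these data or for genes with few reads. Alternatives covered DESeq2 1.42.0 and the exact test of edgeR, 3 other scalings, other filters and fold limits, the replicate block, 2 groups alone, counts divided by 2 and each library left out.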

Additional observations from a re-analysis of the deposited data

Results flagged for a closer look

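The effects of the media against UNX differed for 3 of the 6 tested genes, by the contrast of PH-CM with CO-CM in the same edgeR fit. Of all genes tested, 27.1% were called in that contrast. Because both effects are taken from the same UNX libraries, the contrast is the difference of the effects. For Trem1 the difference was 6.16 on the log2 scale (FDR 2.91e-06), from a rise under PH-CM and a fall under CO-CM, with every PH-CM library above every CO-CM library. For Trem2 it was -0.86 (FDR 2.97e-06), from a rise under CO-CM and a change under PH-CM that was not called. For Cd300lf it was 0.85 (FDR 0.00269), from a rise under both media that was larger under PH-CM.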

How the results depend on the processing

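The calls of the 6 genes were recomputed under 22 alternatives. A fold limit of 2 lowered the counts most: 3 genes higher in PH-CM against UNX (from 5), 1 higher in CO-CM against UNX (from 5), and 1 higher and 0 lower in PH-CM against CO-CM (from 2 and 1). Over all genes the same limit left 2153, 1655 and 612 called genes in place of 7534, 6806 and 3244. No low-count filter, filterByExpr or more than 1 read in every library gave 4 higher in PH-CM against CO-CM, by adding Trem3 and Treml4. Without a filter 2 were lower in CO-CM against UNX, and with only those 2 groups in the fit 0 were, because Trem1 then fell below the filter. Leaving out each library changed no call of the 6 genes; the counts stayed at 5 and 0, 5 and 1, and 2 and 1, and only the sign of Hcst in PH-CM against CO-CM turned, with a range from -0.028 without CO-CM replicate 1 to 0.10 without PH-CM replicate 1. The replicate block changed no call of the 6 genes either: Trem1 was at 3.68, -2.53 and 6.21 with the block in PH-CM against UNX, CO-CM against UNX and PH-CM against CO-CM. With 0.1 RPKM added to both genes, the log2 ratio of Trem1 to Tyrobp differed by -2.06 between CO-CM and UNX and by 4.87 between PH-CM and CO-CM. Upper-quartile factors, DESeq2 size factors, library size alone, the edgeR exact test and the DESeq2 Wald test changed no call of the 6, and with no fold limit Cd300a (0.15) was also called in PH-CM against CO-CM. The few reads of Trem3, Treml4 and, under CO-CM, Trem1 limit their precision.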
